A study of Homo sapiens with 6 samples.

Results

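Overexpression of 22.5 kDa FGF2, a large isoform of fibroblast growth factor 2, was compared with an empty vector in T47D-YA breast cancer cells by RNA sequencing. The comparison takes the 2 libraries of cells overexpressing the 22.5 kDa isoform and the 2 libraries of cells with the empty vector, chosen by their labels, 4 of the 6 libraries of the series. The other 2 come from cells overexpressing the 18 kDa isoform. All Entrez genes were read, and 13124 of 23459 had enough counts to be tested. T47D is a luminal breast cancer line, and T47D-YA is a derivative made to carry isoform A of the progesterone receptor, which the labels give for every group. No treatment is named for any group. The labels do not say whether a group is a pool or a single clone, nor whether its replicates are separate cultures, and the p-values rest on the spread between these libraries, which may be technical. The series title links nuclear FGF2 and the Wnt pathway to luminal tumours that resist antiprogestins, and the comparison asks which genes differ in cells made to express the larger isoform.

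FGF2 mRNA is translated from several start codons. The 18 kDa form starts at the AUG, is exported without a signal peptide and binds FGF receptors together with heparan sulfate at the cell surface. The larger forms start at upstream CUG codons, carry an arginine-rich extension and reside mainly in the nucleus. FGF receptors signal through the ERK pathway, which induces immediate early genes and its own inhibitors. Luminal breast cells are kept in their state by estrogen receptor alpha, FOXA1 and GATA3, and estrogen receptor alpha induces the progesterone receptor gene.

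Counted totals were 5317687 and 5413904 with the empty vector and 6136593 and 5345384 with 22.5 kDa FGF2. Replicates of both groups varied beyond counting error (chi-square divided by its degrees of freedom 6.20 in the control pair and 14.2 in the 22.5 kDa pair). The 6 luminal epithelial markers summed to 14690 and 19550 CPM (counts scaled to the library size) with the empty vector and 11720 and 14670 CPM with 22.5 kDa FGF2. Each group carried the markers of the labelled cell type, and none of the 6 passed the test between the groups, although EPCAM (0.78, adjusted p = 0.114) passed in 7 other settings, among them the fit to 4 libraries (0.0383). The cadherin gene CDH1 was at 843 and 982 CPM with the empty vector and 787 and 726 CPM with 22.5 kDa FGF2. Summed fibroblast, endothelial, leukocyte and adipocyte markers were between 4.12 and 93.5 CPM in each of these 4 libraries.

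With 22.5 kDa FGF2, 1431 of 13124 genes (10.9%) passed edgeR's quasi-likelihood test at an adjusted p under 0.05, 659 higher (5.02%) and 772 lower (5.88%). Of these, 419 were higher and 598 lower by over 2-fold, and 59 were higher and 126 lower by over 8-fold. Each count of list members below is to be read against these shares, and levels are CPM scaled with TMM factors. Lists and named genes were chosen with earlier results of these data known, so shares of calls in lists are descriptions only. Exact permutation of 2 against 2 libraries allows no p under 0.333, so groups that do not overlap add no support. Of the 1431 genes, 403 passed in all 6 fits that each left out 1 library, 171 higher and 232 lower. Those fits called 630 to 1964 genes, with 630 without 22.5 kDa replicate 2, 775 and 792 without empty vector replicate 1 and 2, and 797 without 22.5 kDa replicate 1, where 56.1% of calls were higher against 46.1%. Beside a list, held is the number of its calls that passed in all 6 fits. A gene whose value is given below and whose call was lost in such a fit or in another setting is given with the adjusted p there and its range across the settings tried.

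**Figure D1:**
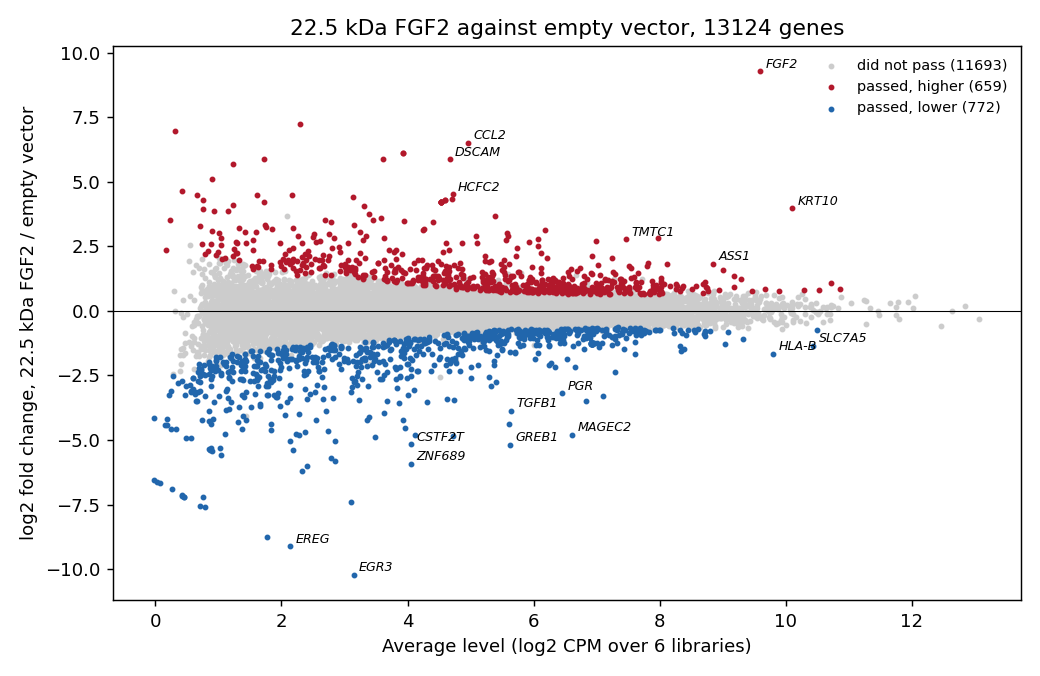
Log2 fold change of 22.5 kDa FGF2 over empty vector (y axis) against average log2 CPM over the 6 libraries (x axis) for 13124 genes; red and blue points passed the test and grey points did not. FGF2 lies at 9.29, KRT10 at 3.97 and GREB1 at -5.20. Genes with no count in a group, such as EGR3 and EREG, are drawn at their fitted value, which depends on a prior count.

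The introduced gene, FGF2, had 12 and 13 counts with the empty vector and 8731 and 7758 with 22.5 kDa FGF2. It stood at 2.15 and 2.44 CPM with the empty vector and 1333 and 1555 CPM with 22.5 kDa FGF2 (log2 fold change 9.29, SE 0.36, adjusted p = 2.48e-15). The 2 groups lay far apart, in the direction the labels give. Counts per gene tell neither the isoforms nor the introduced copy and the cell's own gene apart. NUDT6, which overlaps FGF2 on the other strand, had 12 and 17 against 7 and 1 counts and did not pass (log2 fold change -1.93, SE 0.64, adjusted p = 0.0531), but it passed with RLE size factors (0.04), without the filter on low counts (0.0421), in the fit to 4 libraries (0.026) and with a replicate block (0.0354), and ran from -3.60 to -1.28 with 1 library left out. Whether reads were counted by strand was not given in the sources used here, which leaves the NUDT6 counts uncertain.

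Among genes that carry the FGF signal, the levels of 1 receptor and 3 cell surface co-receptors fell with 22.5 kDa FGF2. Of 15 tested FGF ligands, receptors and co-receptors, 1 rose (FGF2) and 4 fell, with a median log2 fold change of -0.47 against 0.01 over all genes tested (3 of 5 held). FGFR1, a receptor tyrosine kinase gene whose product binds FGF2, was at 53.1 and 53.3 CPM with the empty vector and 20.5 and 22.2 CPM with 22.5 kDa FGF2 (log2 fold change -1.32, SE 0.27, adjusted p = 0.00127). Both 22.5 kDa libraries lay below both empty vector libraries. SDC2, which encodes the heparan sulfate proteoglycan syndecan 2, was at 12.9 and 12.2 CPM with the empty vector and 0.611 and 0.200 CPM with 22.5 kDa FGF2 (log2 fold change -4.80, SE 0.58, adjusted p = 2.47e-06), and all but a few of its reads were in the empty vector libraries. SDC4 (syndecan 4) fell by 0.83 and GPC4 (glypican 4) fell by 1.40 on the log2 scale. SDC4 fell short of the threshold without either empty vector or either 22.5 kDa library (0.086 to 0.165) or against a fold of 1.5 (0.423), at 0.000268 to 0.423 across its settings, and GPC4 did so without either empty vector or either 22.5 kDa library (0.0989 to 0.155), with DESeq2 (0.0595) or against a fold of 1.5 (0.121), at 0.000202 to 0.155 across its settings. FGFR2 (log2 fold change -0.88, SE 0.52, adjusted p = 0.319), FGFR3 (-0.01, adjusted p = 0.996) and FGFR4 (-0.47, adjusted p = 0.345) did not pass. FGFR2 ran from -2.05 to -0.31 with 1 library left out. FGFR3 stood at 32.0 and 32.1 CPM with the empty vector and 27.5 and 36.5 CPM with 22.5 kDa FGF2, so that its groups overlapped. Of 16 tested enzymes that make or trim heparan sulfate, 2 fell and 0 rose, with a median of 0.03, and neither held. SULF2 fell short of the threshold without empty vector replicate 2 (0.0593), with either 22.5 kDa library left out (replicate 1, 0.0585; replicate 2, 0.0786) or with DESeq2 (0.0689), at 4.62e-05 to 0.0786 across its settings, and HPSE without either empty vector or either 22.5 kDa library (0.0862 to 0.212), with DESeq2 (0.162) or against a fold of 1.5 (0.116), at 0.000623 to 0.212 across its settings.

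Every immediate early gene and ERK target that passed was lower with 22.5 kDa FGF2. Of 20 tested immediate early genes 7 fell and 0 rose (35%, median -0.40, 2 of 7 held), and of 18 ERK feedback and target genes 4 fell and 0 rose (22.2%, median -0.47, 1 of 4 held). Immediate early genes are switched on by serum response factor and other factors that ERK activates, through serum response elements (CArG boxes) in their promoters. The EGR1 promoter is printed to show these elements in a member that fell, from the RefSeq table for GRCh38.p14, with 250 bases before the start site on the plus strand at chr5:138465229-138465478 and the 2 serum response element cores in capitals.
EGR1 promoter: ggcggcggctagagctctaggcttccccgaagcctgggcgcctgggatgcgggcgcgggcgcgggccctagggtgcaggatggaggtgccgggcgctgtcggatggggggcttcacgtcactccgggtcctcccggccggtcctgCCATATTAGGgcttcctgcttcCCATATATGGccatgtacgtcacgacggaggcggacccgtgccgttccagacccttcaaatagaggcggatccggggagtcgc
The cores begin 105 and 83 bases before the start. Such a core, searched on both strands, is in 407 of 35116 promoter windows of this length (1.16%) and in that of 1 of the 15 tested immediate early genes with a promoter in the table, EGR1. Other motifs were searched in the same windows. A cAMP response element was in 2 of these 15 genes, JUND and DUSP1, which did not pass. An estrogen response element was in 0 of 21 estrogen-regulated genes with a promoter. A sterol regulatory element was in 1 of 18 cholesterol synthesis genes, which did not pass, and 0 of 21 fatty acid and lipid storage genes. A match in letters is a description of the promoter and was not measured as a binding site.

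EGR3 (Entrez 1960), a zinc finger transcription factor gene of the same family as EGR1, had 105 and 177 counts with the empty vector and none with 22.5 kDa FGF2, at least 49.1-fold lower against a floor of 3 counts per library. It had no count in the 18 kDa libraries either. EGR1 was at 5.01 and 8.63 CPM with the empty vector and 0.916 and 0.401 CPM with 22.5 kDa FGF2 (log2 fold change -3.27, SE 0.58, adjusted p = 0.000342). Both genes were lower in each 22.5 kDa library than in either empty vector library. NR4A1, an orphan nuclear receptor gene, was at 93.5 and 62.1 CPM with the empty vector and 18.8 and 22.2 CPM with 22.5 kDa FGF2 (log2 fold change -1.93, SE 0.26, adjusted p = 1.52e-05). The AP-1 gene FOSB fell by 2.73 and the zinc finger factor KLF4 fell by 2.25. Of the feedback genes, DUSP4, whose product removes the activating phosphates of ERK, was at 8.22 and 9.94 CPM with the empty vector and 0.458 and 1.40 CPM with 22.5 kDa FGF2 (log2 fold change -3.33, SE 0.55, adjusted p = 0.000161), and PHLDA1 fell by 1.96. EGR1 fell short of the threshold without 22.5 kDa replicate 2 (adjusted p 1.56e-08 to 0.0515 across its settings), FOSB without 22.5 kDa replicate 2 (adjusted p 1.04e-05 to 0.068 across its settings), KLF4 without 22.5 kDa replicate 2 (adjusted p 9.58e-09 to 0.0598 across its settings) and PHLDA1 without 22.5 kDa replicate 2 (adjusted p 3.41e-06 to 0.115 across its settings).

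**Figure D2:**
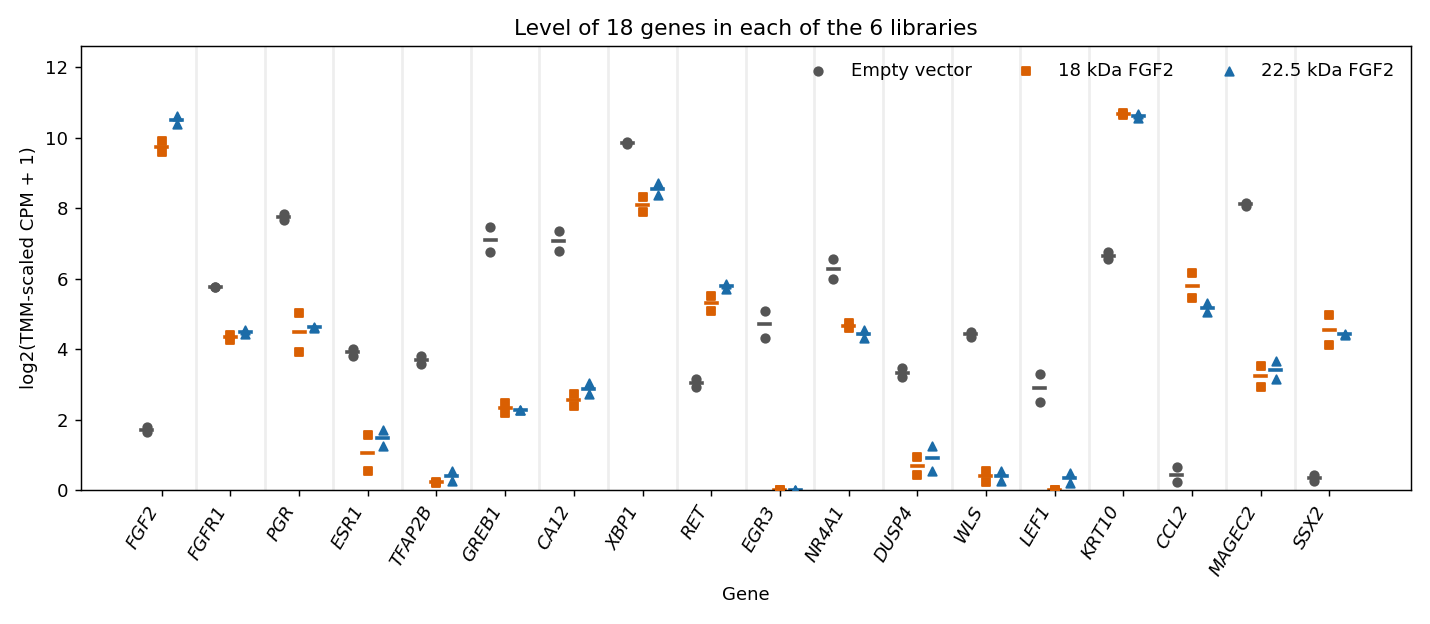
Level of 18 genes as log2(TMM-scaled CPM + 1) (y axis) in each library; points are single libraries and bars are the mean of the 2 libraries of a group. PGR, ESR1, TFAP2B, GREB1, CA12, EGR3, WLS and MAGEC2 lie lower in both 22.5 kDa libraries than in both empty vector libraries, and RET, KRT10, CCL2 and SSX2 lie higher.

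The genes of the estrogen and progesterone receptors were lower with 22.5 kDa FGF2. PGR (Entrez 5241), the progesterone receptor gene, was at 228 and 202 CPM with the empty vector and 24.0 and 23.3 CPM with 22.5 kDa FGF2 (log2 fold change -3.19, SE 0.31, adjusted p = 8.77e-06). Counts cannot tell the introduced A form from the cell's own gene, so the fall is not shown to lie in the estrogen-induced gene. Estrogen receptor alpha is encoded by ESR1 (Entrez 2099), which was at 13.1 and 15.0 CPM with the empty vector and 2.29 and 1.40 CPM with 22.5 kDa FGF2 (log2 fold change -2.88, SE 0.50, adjusted p = 0.000245). Its call was lost without 22.5 kDa replicate 2 (adjusted p 1.59e-11 to 0.0523 across its settings). In both genes the 2 groups did not overlap. Among 27 tested nuclear receptors and pioneer factors 2 rose and 3 fell (18.5%, median -0.20, 3 of 5 held). The third gene to fall was TFAP2B, an AP-2 factor gene, at 12.9 and 10.9 CPM with the empty vector and 0.458 and 0.200 CPM with 22.5 kDa FGF2 (log2 fold change -5.02, SE 0.59, adjusted p = 1.4e-06).

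Estrogen-regulated genes held a larger share of calls than all genes, and most of these calls were lower. The list was chosen with earlier results of these data known, so the excess is a description with no test. PGR is among the members that fell, and its reads may come from the introduced gene. Of 27 tested members 12 fell and 3 rose (55.6%), with a median of -0.75, and 8 of 15 held. GREB1 (Entrez 9687), an estrogen receptor target and cofactor, was at 106 and 175 CPM with the empty vector and 3.82 and 3.81 CPM with 22.5 kDa FGF2 (log2 fold change -5.20, SE 0.32, adjusted p = 3.69e-11). CA12, a membrane carbonic anhydrase gene, was at 109 and 161 CPM with the empty vector and 7.18 and 5.61 CPM with 22.5 kDa FGF2, and it fell by 4.39 on the log2 scale (adjusted p = 1.85e-10). Neither gene had a 22.5 kDa library near the empty vector range. The transcription factor gene XBP1 fell by 1.29 and IGFBP4, which encodes a binding protein of insulin-like growth factors, fell by 3.29. PDZK1, a scaffold protein gene, had 19 and 26 counts with the empty vector and none with 22.5 kDa FGF2 (at least 7.81-fold lower). RET, the receptor tyrosine kinase of the GDNF family, moved the other way, at 6.62 and 7.88 CPM with the empty vector and 51.5 and 56.9 CPM with 22.5 kDa FGF2 (log2 fold change 2.90, SE 0.29, adjusted p = 2.19e-07).

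Progestin-regulated genes split, with 4 of 19 tested members higher and 3 lower (36.8%, median 0.32, 5 of 7 held). EDN1, the endothelin 1 precursor gene, was at 21.8 and 11.4 CPM with the empty vector and 113 and 77.0 CPM with 22.5 kDa FGF2 (log2 fold change 2.52, SE 0.31, adjusted p = 9.3e-05), and S100P, a calcium-binding protein gene, was at 13.4 and 7.50 CPM with the empty vector and 60.9 and 70.8 CPM with 22.5 kDa FGF2 (log2 fold change 2.65, SE 0.33, adjusted p = 4.56e-06). Both were higher in each 22.5 kDa library. STAT5A, a signal transducer of prolactin, fell by 1.65, the clock gene PER1 fell by 1.52 and the tyrosine aminotransferase gene TAT had 0 and 5 counts against 81 and 57 with the empty vector. TAT fell short of the threshold with DESeq2 (adjusted p 8.14e-13 to 0.206 across its settings). Androgen-regulated and apocrine genes also split, with 3 of 19 higher and 2 lower (26.3%, median -0.40, 2 of 5 held). AZGP1, a secreted glycoprotein gene of apocrine cells, was at 289.6 and 298 CPM with the empty vector and 22.3 and 29.9 CPM with 22.5 kDa FGF2 (log2 fold change -3.50, SE 0.25, adjusted p = 6.97e-10), with both 22.5 kDa libraries below both empty vector libraries.

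Wnt genes moved in both directions. Of 19 tested ligands, receptors and secretion genes 5 rose and 2 fell (36.8%, median 0.24, 2 of 7 held), and of 24 beta-catenin pathway and target genes 2 rose and 4 fell (25%, median 0.13, 2 of 6 held). WLS, whose product takes Wnt ligands to the plasma membrane, was at 21.6 and 19.1 CPM with the empty vector and 0.458 and 0.200 CPM with 22.5 kDa FGF2 (log2 fold change -5.80, SE 0.58, adjusted p = 1.44e-07). Its 22.5 kDa libraries held 3 and 1 counts. The ligand gene WNT6 was at 0.894 and 3.19 CPM with the empty vector and 10.4 and 15.8 CPM with 22.5 kDa FGF2 (log2 fold change 2.67, SE 0.51, adjusted p = 0.000906) and the receptor gene FZD4 at 51.5 and 50.3 CPM with the empty vector and 125 and 110.5 CPM with 22.5 kDa FGF2 (log2 fold change 1.21, SE 0.24, adjusted p = 0.00103), both higher in each 22.5 kDa library. The ligand gene WNT4 rose by 1.69. Among the nuclear factors and targets, LEF1, which binds DNA with beta-catenin, had 1 and 2 counts against 26 and 47 (25.7-fold lower in counts, with a 95% interval of 8.46 to 128), and SOX9 fell by 2.61 (adjusted p = 3.27e-05). RNF43, which removes Wnt receptors from the surface, rose by 1.08. CTNNB1, the beta-catenin gene, was at 164 and 129.6 CPM with the empty vector and 200.5 and 132 CPM with 22.5 kDa FGF2 and did not pass (log2 fold change 0.18, SE 0.26, adjusted p = 0.75), with overlapping groups. WNT6 fell short of the threshold without 22.5 kDa replicate 2 (adjusted p 2.68e-10 to 0.0579 across its settings), WNT4 without either empty vector or either 22.5 kDa library (0.0521 to 0.206) or against a fold of 1.5 (0.0569), at 0.00019 to 0.206 across its settings and RNF43 without empty vector replicate 2 (0.161) or against a fold of 1.5 (0.0868), at 2.45e-06 to 0.161 across its settings. Of 20 tested Notch pathway genes 1 rose and 2 fell (15%, median -0.31), and none of the 3, NOTCH3, DLL4 and HEY1, held.

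Genes of other growth factor families were also among those that passed. Of 12 tested EGF family ligands and ERBB receptors 3 fell and 0 rose (25%, median -0.77, 2 of 3 held). EREG, the epiregulin gene, had 80 and 51 counts with the empty vector and none with 22.5 kDa FGF2 (at least 22.5-fold lower). AREG, the amphiregulin gene, was at 83.0 and 103 CPM with the empty vector and 27.5 and 18.4 CPM with 22.5 kDa FGF2 (log2 fold change -2.01, SE 0.24, adjusted p = 2.35e-06). Of 23 tested TGF-beta and BMP genes 7 rose and 2 fell (39.1%, median 0.43, 4 of 9 held). TGFB1 (Entrez 7040), the gene of transforming growth factor beta 1, was at 98.5 and 99.4 CPM with the empty vector and 5.50 and 8.22 CPM with 22.5 kDa FGF2 (log2 fold change -3.86, SE 0.28, adjusted p = 8.57e-10), well below the empty vector in each 22.5 kDa library. The ligand gene BMP7 rose by 3.22, the inhibitory SMAD gene SMAD6 rose by 1.5 and LTBP1, whose product holds latent TGF-beta in the matrix, rose by 1.18. Among 14 tested insulin and IGF signalling genes 3 rose and 2 fell (35.7%, median -0.14, 1 of 5 held).

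Genes of basal and squamous epithelium that passed were mostly higher. Of 30 listed basal and squamous genes, 14 had enough counts to be tested. Of these 14, 5 rose and 1 fell (42.9%, median 0.01, 3 of 6 held). The member that fell was the laminin chain gene LAMA3, whose call did not hold. Of 24 tested luminal genes 3 rose and 2 fell (20.8%, median -0.24, 0 of 5 held). The luminal genes GRHL1 and OVOL2, 2 of the 3 that rose, lie in stretches of chromosome with raised medians, described below. So do the basal and squamous genes ITGA6 and ITGB6, 2 of the 5 that rose. KRT10 (Entrez 3858), the keratin of differentiating epidermis, was at 92.6 and 107 CPM with the empty vector and 1627 and 1505 CPM with 22.5 kDa FGF2 (log2 fold change 3.97, SE 0.26, adjusted p = 1.44e-10). TRIM29, a basal cell gene, was at 1.43 and 1.69 CPM with the empty vector and 17.7 and 18.8 CPM with 22.5 kDa FGF2 (log2 fold change 3.53, SE 0.45, adjusted p = 5.87e-06) and LAMB3, a chain of the basement membrane laminin, at 53.8 and 44.8 CPM with the empty vector and 214 and 198 CPM with 22.5 kDa FGF2 (log2 fold change 2.06, SE 0.24, adjusted p = 1.13e-06). None of these 3 genes had overlapping groups. The luminal keratin gene KRT7 rose by 0.99 but fell short of the threshold with either empty vector library left out (replicate 1, 0.0527; replicate 2, 0.0758) or against a fold of 1.5 (0.14), at 8.33e-06 to 0.14 across its settings. Matrix genes gave 1 of 17 higher and 4 lower (29.4%, median 0.10, 2 of 5 held). FN1, the fibronectin gene, was at 27.9 and 31.7 CPM with the empty vector and 7.64 and 5.21 CPM with 22.5 kDa FGF2 (log2 fold change -2.20, SE 0.37, adjusted p = 0.00018), and the thrombospondin gene THBS1 fell by 3.15 but fell short of the threshold without 22.5 kDa replicate 2 (adjusted p 4.42e-10 to 0.0522 across its settings). Summed fibroblast markers were 83.3 and 69.2 CPM with the empty vector and 59.7 and 54.7 CPM with 22.5 kDa FGF2, with no marker at 0 in all libraries, and 1 of 5 tested passed, THY1 (23.2-fold lower in counts, with a 95% interval of 6.06 to 198). The part of these markers in the matrix genes was not tested.

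Clustered protocadherins, cell surface adhesion genes that share exons within a cluster on chromosome 5, were lower in the gamma and beta clusters. All 22 tested genes of the gamma cluster passed as lower with nearly the same log2 fold change (-1.27 to -1.23), and their counts cannot be told apart because the last exons are shared, so they are read here as 1 measurement. PCDHGA10 stood for them at 201 and 204 CPM with the empty vector and 79.9 and 90.0 CPM with 22.5 kDa FGF2 (log2 fold change -1.26, SE 0.22, adjusted p = 0.000255). The beta cluster genes, which have 1 exon each, passed as lower in 7 of 8 tested members (-3.14 to -1.34), among them PCDHB5 at 30.9 and 28.0 CPM with the empty vector and 5.65 and 3.81 CPM with 22.5 kDa FGF2 (log2 fold change -2.62, SE 0.37, adjusted p = 2.38e-05). In the alpha cluster 2 of 8 tested genes passed as lower (-1.89 to -1.18, 47 to 89 counts each over the 6 libraries). Alpha genes may also share reads through shared exons, but they were counted singly here and below. Of 25 tested protocadherins and neural adhesion genes 11 fell and 4 rose (60%, 8 of 15 held), and with the 3 gamma genes of the list counted once 9 of 23 fell and 4 rose (56.5%). DSCAM, an adhesion molecule gene of neurons, moved up, at 0.536 and 0.750 CPM with the empty vector and 34.8 and 43.1 CPM with 22.5 kDa FGF2 (log2 fold change 5.88, SE 0.43, adjusted p = 7.15e-10), and the kainate receptor gene GRIK4 had no count with the empty vector and 17 and 20 counts with 22.5 kDa FGF2 (at least 6.01-fold higher). EFNB2, the ephrin B2 gene, fell by 2.37. Of the cancer-testis genes that passed, those of the MAGE family were lower. MAGEC2 was at 267 and 284 CPM with the empty vector and 11.8 and 7.82 CPM with 22.5 kDa FGF2 (log2 fold change -4.80, SE 0.28, adjusted p = 1.46e-11) and MAGEA10 fell by 4.13, whereas SSX2 and SSX2B, near-identical copies with the same counts in every library, rose from 2 and 1 to 136 and 100 counts (74.5-fold higher in counts, with a 95% interval of 25.2 to 364) and are uncertain as single genes. These were the 4 of 12 tested members that passed (33.3%), or 3 of 11 with the SSX copies counted once (27.3%), and the other 8 did not pass.

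The antigen presentation genes that passed were lower, and the chemokine gene CCL2 was among the most raised genes. Of 15 tested antigen presentation genes 6 fell and 0 rose (40%, median -0.89, 2 of 6 held). HLA-B, a class I heavy chain gene, was at 1294 and 1293 CPM with the empty vector and 419.6 and 391 CPM with 22.5 kDa FGF2 (log2 fold change -1.67, SE 0.23, adjusted p = 1.84e-05), and HLA-C fell by 1.09. HLA genes are polymorphic and share sequence, so the split of reads between them is uncertain. CD74, the invariant chain of class II molecules, fell by 1.15. HLA-C fell short of the threshold against a fold of 1.5 (adjusted p 7.13e-06 to 0.0714 across its settings) and CD74 without empty vector replicate 2 (0.278), with either 22.5 kDa library left out (replicate 1, 0.0905; replicate 2, 0.0854) or against a fold of 1.5 (0.101), at 8.64e-06 to 0.278 across its settings. Summed leukocyte markers were 11.6 and 10.9 CPM with the empty vector and 4.12 and 5.41 CPM with 22.5 kDa FGF2, the T cell marker CD3E was at 0 in all libraries and 1 of 6 markers had enough counts to be tested. The part of these markers in the result was not tested. Interferon response genes gave 2 of 29 lower and 0 higher (6.90%, median -0.41, 0 of 2 held), a share below that of all genes. The ubiquitin ligase gene HERC6 (-2.0) and OASL (-1.80) were the 2, and HERC6 fell short of the threshold with either 22.5 kDa library left out (replicate 1, 0.146; replicate 2, 0.114) or with DESeq2 (0.0705), at 2.32e-05 to 0.146 across its settings and OASL without empty vector replicate 1 (0.175) or without 22.5 kDa replicate 1 (0.128), at 1.06e-06 to 0.175 across its settings. CCL2, the monocyte chemokine gene, had 1 and 3 counts with the empty vector and 251 and 161 with 22.5 kDa FGF2 (log2 fold change 6.51, SE 0.49, adjusted p = 1.1e-09). C5AR2, a receptor of complement C5a, fell by 3.27. Together 3 of 16 tested chemokine, cytokine and receptor genes rose and 2 fell (31.2%, 2 of 5 held).

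Most lipid genes that passed were lower. Of 24 tested cholesterol synthesis genes 3 fell and 0 rose (12.5%, median -0.29, 1 of 3 held), and of 26 fatty acid synthesis and lipid storage genes 9 fell and 1 rose (38.5%, median -0.18, 3 of 10 held). THRSP, a regulator of lipogenesis, was at 24.5 and 30.4 CPM with the empty vector and 4.12 and 5.81 CPM with 22.5 kDa FGF2 (log2 fold change -2.47, SE 0.41, adjusted p = 0.000149), and the lipid droplet genes PLIN4 and PLIN5 fell by 2.18 and 2.36 on the log2 scale. INSIG1, a sterol sensor partner, fell by 0.79 and SREBF1, a master factor of lipid synthesis, fell by 0.73. INSIG1 fell short of the threshold without either empty vector or either 22.5 kDa library (0.0588 to 0.247) or against a fold of 1.5 (0.482), at 0.000687 to 0.482 across its settings and SREBF1 without either empty vector or either 22.5 kDa library (0.0734 to 0.206) or against a fold of 1.5 (0.615), at 0.00129 to 0.615 across its settings. Summed adipocyte markers were 33.1 and 33.8 CPM with the empty vector and 9.77 and 9.42 CPM with 22.5 kDa FGF2, with FABP4 at 0 in all libraries and PLIN4 among the 2 of 3 tested markers that passed. Their part in the lipid genes was not tested.

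Other metabolic and stress lists held few calls in number, at shares above the 10.9% of all genes. Of 32 tested hypoxia and glycolysis genes 4 rose and 2 fell (18.8%, 2 of 6 held), with PDK1, a kinase that restrains pyruvate dehydrogenase, at 6.62 and 9.57 CPM with the empty vector and 43.2 and 39.7 CPM with 22.5 kDa FGF2 (log2 fold change 2.36, SE 0.35, adjusted p = 5.92e-05) and the phosphofructokinase gene PFKL higher by 1.26. Of 29 tested amino acid synthesis and ATF4 target genes 2 rose and 3 fell (17.2%, 2 of 5 held). ASS1, the argininosuccinate synthase of arginine synthesis, was at 245 and 312 CPM with the empty vector and 907 and 1050.1 CPM with 22.5 kDa FGF2 (log2 fold change 1.81, SE 0.23, adjusted p = 5.81e-06). SLC7A5, a large neutral amino acid transporter gene, fell by 1.35 (adjusted p = 0.000535). Of 29 unfolded protein response genes 2 rose and 3 fell (17.2%, 3 of 5 held), among them CREB3L1, a membrane-bound transcription factor gene, at 2.68 and 1.88 CPM with the empty vector and 10.5 and 19.6 CPM with 22.5 kDa FGF2 (log2 fold change 2.70, SE 0.47, adjusted p = 0.000257), and DERL3, a gene of protein retrieval from the endoplasmic reticulum, which fell by 3.09. The metallothionein genes MT1A and MT2A, zinc-binding proteins with similar sequences, fell by 1.30 and 1.24, the 2 of 6 tested members that passed (33.3%).

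Mitotic genes that passed were lower. Of 30 tested mitotic genes 5 fell and 0 rose (16.7%, median -0.51, 1 of 5 held), and of 30 S phase genes 0 fell and 1 rose (3.33%, median 0.01, 0 of 1 held). The difference between these 2 lists was not tested. KIF2C, a kinesin of the mitotic spindle, was at 211 and 222 CPM with the empty vector and 98.3 and 116 CPM with 22.5 kDa FGF2 (log2 fold change -1.01, SE 0.21, adjusted p = 0.00209), and FOXM1, a factor that drives mitotic genes, fell by 0.93. The S phase gene that rose was the DNA polymerase gene POLA1 (1.82). KIF2C fell short of the threshold against a fold of 1.5 (adjusted p 3.25e-06 to 0.113 across its settings), FOXM1 with either empty vector library left out (replicate 1, 0.0778; replicate 2, 0.0528), without 22.5 kDa replicate 1 (0.0793) or against a fold of 1.5 (0.234), at 2.15e-05 to 0.234 across its settings and POLA1 with either 22.5 kDa library left out (replicate 1, 0.128; replicate 2, 0.0722) or against a fold of 1.5 (0.128), at 8.02e-07 to 0.128 across its settings. Of 29 tested cyclins, CDK inhibitors and apoptosis regulators 2 rose and 2 fell (13.8%, 2 of 4 held). CDKN2C, an inhibitor of cyclin D kinases, fell by 1.28 and BIK, a death-promoting BCL2 family gene, rose by 2.28.

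Because the larger isoform resides in the nucleus, genes of its nuclear partners and of the nucleolus were read as a group. Of 21 tested partner and import genes, LGALS3 rose and FGFR1 fell (9.52%, median 0.04, 2 of 2 held), a share near that of all genes. LGALS3, the galectin 3 gene, was at 62.4 and 70.2 CPM with the empty vector and 175 and 194 CPM with 22.5 kDa FGF2 (log2 fold change 1.48, SE 0.21, adjusted p = 3.2e-05). Of 33 nucleolar and RNA polymerase I genes 3 rose and 0 fell (9.09%, median 0.23, 0 of 3 held). They were the polymerase subunit genes POLR1A (1.2) and POLR1B (1.25) and the ribosome assembly gene NOP56 (0.94). POLR1A fell short of the threshold without empty vector replicate 1 (adjusted p 1.47e-06 to 0.0641 across its settings), POLR1B without empty vector replicate 1 (adjusted p 3.75e-07 to 0.0928 across its settings) and NOP56 without empty vector replicate 1 (0.211), without 22.5 kDa replicate 2 (0.0501) or against a fold of 1.5 (0.204), at 1.47e-05 to 0.211 across its settings.

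Several of the largest changes fell outside these lists. HCFC2, a host cell factor gene, was at 3.04 and 3.19 CPM with the empty vector and 91.0 and 52.7 CPM with 22.5 kDa FGF2 (log2 fold change 4.52, SE 0.37, adjusted p = 6.68e-09). TMTC1, a mannosyltransferase gene of the endoplasmic reticulum, was at 63.7 and 62.3 CPM with the empty vector and 486 and 379 CPM with 22.5 kDa FGF2 (log2 fold change 2.78, SE 0.23, adjusted p = 6.68e-09), higher in each 22.5 kDa library. APOL4, an apolipoprotein L gene, was 62.5-fold higher in counts, with a 95% interval of 10.8 to 2505. The 9 tested genes of the UGT1A cluster, glucuronosyltransferases that share their last exons and had 825 to 928 counts each over the 6 libraries, all passed as higher with log2 fold changes of 4.21 to 4.35, and they are read as 1 measurement, with UGT1A6 at 2.32 and 2.25 CPM with the empty vector and 59.2 and 34.5 CPM with 22.5 kDa FGF2. Among the lowest, TENM2, a teneurin adhesion gene, was 207-fold lower in counts, with a 95% interval of 36.7 to 8218, and the zinc finger gene ZNF689 was 66.2-fold lower in counts, with a 95% interval of 22.3 to 324. The Schlafen genes SLFN11, whose product blocks stalled replication forks, and SLFN13 were 72.9-fold lower in counts, with a 95% interval of 19.8 to 608, and 59.1-fold lower in counts, with a 95% interval of 10.2 to 2378, respectively. CSTF2T, a polyadenylation factor gene, was at 31.5 and 38.5 CPM with the empty vector and 1.07 and 0.802 CPM with 22.5 kDa FGF2 (log2 fold change -5.17, SE 0.44, adjusted p = 1.4e-08). Over all genes that passed, 2 had no count with the empty vector and 14 had none with 22.5 kDa FGF2.

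Several genes described above moved about as far with 18 kDa FGF2 against the same empty vector libraries. Log2 fold changes there were -5.12 for GREB1, -4.76 for CA12, -5.87 for WLS and -5.01 for MAGEC2. They were 4.03 for KRT10, 7.19 for CCL2 and 5.74 for DSCAM. Other genes, given below, did not move alike. A direct test against the 18 kDa libraries asked which levels differed between the 2 isoform groups. It passed 207 of 13124 genes (1.58%), 148 higher (1.13%) and 59 lower (0.45%) with 22.5 kDa FGF2, and 30 of them passed in all 6 fits with 1 library left out. The count ran from 37 without 22.5 kDa replicate 2 and 66 without 22.5 kDa replicate 1 to 135 without 18 kDa replicate 1 and 733 without 18 kDa replicate 2, so that it turned on both isoform groups. TMTC1 was at 63.7 and 62.3 CPM with the empty vector, 37.8 and 31.3 CPM with 18 kDa and 486 and 379 CPM with 22.5 kDa FGF2, with a log2 difference between isoforms of 3.65 (SE 0.24, adjusted p = 4.86e-10). HCFC2 was at 3.04 and 3.19 CPM with the empty vector, 2.0 and 2.99 CPM with 18 kDa and 91.0 and 52.7 CPM with 22.5 kDa FGF2 (4.85, SE 0.38, adjusted p = 7.98e-09). ASS1 was at 245 and 312 CPM with the empty vector, 132 and 109 CPM with 18 kDa and 907 and 1050.1 CPM with 22.5 kDa FGF2 (3.02, SE 0.24, adjusted p = 1.3e-08). In these 3 genes the 22.5 kDa libraries lay above all others, and in ASS1 the 18 kDa libraries also lay below the empty vector. S100P was likewise higher with 22.5 kDa FGF2 (2.75), as was CREB3L1, with 1 and 2 counts with 18 kDa FGF2 (58.9-fold higher in counts, with a 95% interval of 19.8 to 288). WNT6 (2.99) and FZD4 (1.53) passed as higher, although WNT6 fell short of the threshold without 22.5 kDa replicate 2 (adjusted p 2.32e-11 to 0.135 across its settings) and FZD4 without 22.5 kDa replicate 2 (adjusted p 1.09e-10 to 0.0564 across its settings).

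Genes lower with 22.5 kDa than with 18 kDa FGF2 included ligands and a transcription cofactor. TGFB1 was at 98.5 and 99.4 CPM with the empty vector, 49.4 and 36.5 CPM with 18 kDa and 5.50 and 8.22 CPM with 22.5 kDa FGF2 (-2.66, SE 0.28, adjusted p = 1.18e-06), with the 18 kDa libraries between the other groups. AREG was at 83.0 and 103 CPM with the empty vector, 107 and 122 CPM with 18 kDa and 27.5 and 18.4 CPM with 22.5 kDa FGF2 (-2.31, SE 0.24, adjusted p = 1.18e-06), and VGLL1, a partner of TEAD factors, at 90.3 and 84.8 CPM with the empty vector, 136 and 98.2 CPM with 18 kDa and 22.3 and 19.0 CPM with 22.5 kDa FGF2 (-2.50, SE 0.24, adjusted p = 3.37e-07). In AREG and VGLL1 both 18 kDa libraries were above both 22.5 kDa libraries by a wide margin. VGLL1 was also lower than in the controls (log2 fold change -2.08, SE 0.24, adjusted p = 1.11e-06). HLA-B differed by -1.27, but its call was lost without 22.5 kDa replicate 2 (0.0564) or against a fold of 1.5 (0.0795), at 3.29e-09 to 0.0795 across its settings. ZNF689 was 121-fold lower in counts, with a 95% interval of 41.1 to 589 and TENM2 77.5-fold lower in counts, with a 95% interval of 13.5 to 3098, both against 18 kDa FGF2. CSTF2T differed by -3.77 on the log2 scale.

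In another set of genes that differed between isoforms, the 18 kDa libraries were the low ones. ZDHHC4 and LFNG among them lie on chromosome 7, part of which had lowered medians with 18 kDa FGF2, described below. ZDHHC4, a palmitoyltransferase gene, was at 35 and 38.6 CPM with the empty vector, no count with 18 kDa and 25 and 35.1 CPM with 22.5 kDa FGF2 (at least 60.9-fold higher with 22.5 kDa), and its 22.5 kDa comparison with the controls did not pass (log2 fold change -0.30, SE 0.30, adjusted p = 0.626). LFNG, a glycosyltransferase gene that modifies Notch receptors, was at 49.3 and 76.0 CPM with the empty vector, 3.53 and 4.39 CPM with 18 kDa and 30.4 and 47.9 CPM with 22.5 kDa FGF2. DTX4, a ubiquitin ligase gene of the Notch pathway, was at 59.5 and 71.7 CPM with the empty vector, 7.67 and 5.97 CPM with 18 kDa and 53.3 and 43.1 CPM with 22.5 kDa FGF2. Both passed between isoforms (3.30, adjusted p = 1.18e-06, and 2.81, adjusted p = 6.2e-07) and did not pass for 22.5 kDa FGF2 against the controls (-0.68, adjusted p = 0.132, and -0.44, adjusted p = 0.293). LFNG did pass against the controls with a replicate block on crossed 18 kDa numbers (0.0129). CD74 had the same order, at 58.6 and 89.1 CPM with the empty vector, 2.76 and 4.92 CPM with 18 kDa and 31.0 and 35.5 CPM with 22.5 kDa FGF2 (3.12, SE 0.33, adjusted p = 1.33e-06). Among the receptor genes described above with no call between isoforms were PGR at 0.05 (adjusted p = 0.961), ESR1 at 0.68 (0.702) and FGFR1 at 0.15 (0.866). Their SEs were 0.27 to 0.61, and the lack of a call does not show that the isoforms act alike. FGFR3 did pass (1.23, SE 0.29, adjusted p = 0.0241), but lost its call without 18 kDa replicate 1 (0.0552), with either 22.5 kDa library left out (replicate 1, 0.0904; replicate 2, 0.221) or against a fold of 1.5 (0.298), at 9.23e-05 to 0.298 across its settings. FGF2 itself was higher with 22.5 kDa than with 18 kDa FGF2 in CPM, at 1333 and 1555 against 961 and 767, and did not pass (0.74, SE 0.23, adjusted p = 0.118). It passed with DESeq2 (0.0325) and with a replicate block on crossed 18 kDa numbers (0.00425), and its part in the isoform differences was not tested.

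**Figure D3:**
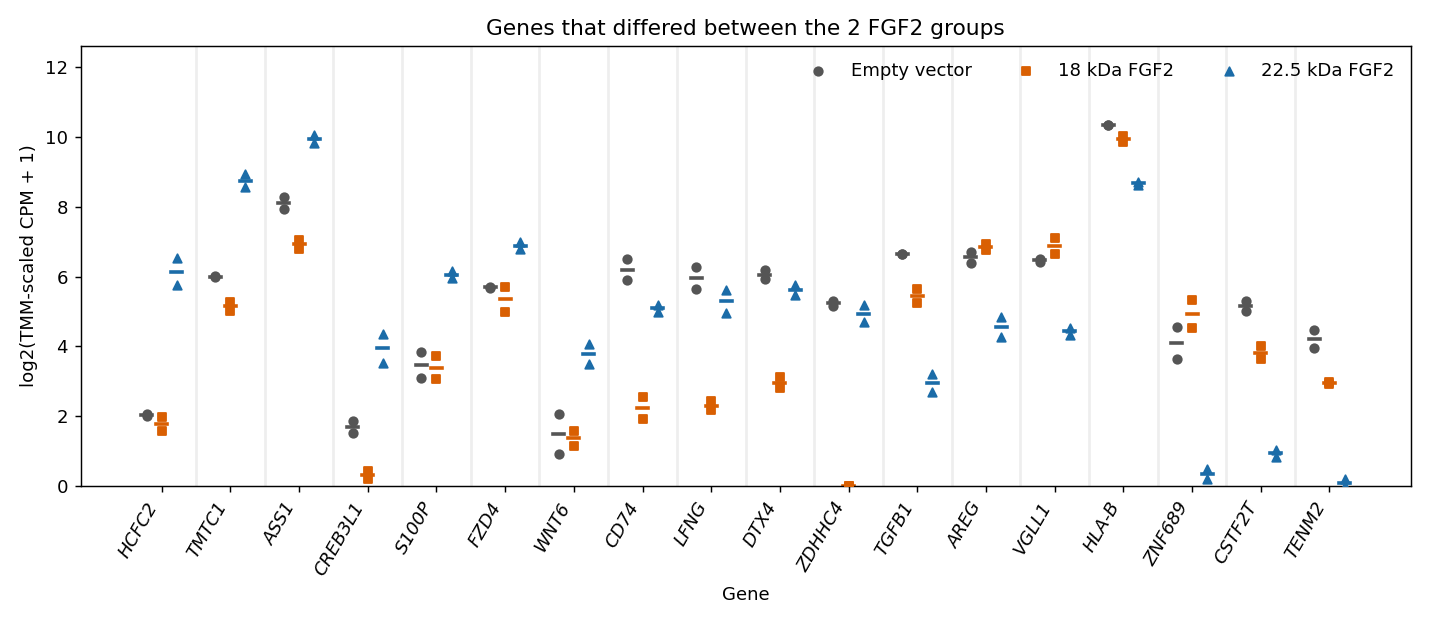
Level of 18 genes as log2(TMM-scaled CPM + 1) (y axis) in each library, points single libraries and bars the mean of the 2 libraries of a group. In HCFC2, TMTC1, ASS1, CREB3L1 and S100P both 22.5 kDa libraries lie above the other 4, in TGFB1, AREG, VGLL1, ZNF689, CSTF2T and TENM2 both lie below them, and in ZDHHC4, LFNG, DTX4 and CD74 the 18 kDa libraries are the low ones.

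Genes higher with 22.5 kDa FGF2 were unevenly spread along the chromosomes. In the gene order of the RefSeq table, 13073 tested genes were divided into 326 bins of 38 to 45 neighbours, and 34 bins had a median log2 fold change of at least 0.4. They were all 21 bins of chromosome 2 (medians 0.43 to 0.74), all 3 of chromosome 21 (0.51 to 0.63), 3 of 10 on chromosome X (0.65 to 1.5), 3 of 9 on chromosome 20 (0.43 to 0.60) and 4 of 34 on chromosome 1 (0.40 to 0.45). The raised bins held 1374 tested genes (10.5%) and 290 of the 659 genes that passed as higher (44%). Within them 21.1% of genes passed as higher, against 3.14% elsewhere, and the median was 0.59 against -0.04. The bins were picked by these medians, so the shares are a description with no test. On chromosome 21 the median was 0.55 with 22.5 kDa FGF2 and -0.04 with 18 kDa FGF2 against the same empty vector libraries. On chromosome 2 it was 0.59 and 0.35. With 18 kDa FGF2, bins 1 to 15 of chromosome 2 had medians of 0.25 to 0.64, and bins 16 to 21 of -0.19 to 0.11. The raised bins of chromosome X were at 0.75 to 0.95 with 18 kDa FGF2 and those of chromosome 20 at 0.35 to 0.61. Those of chromosome 1 were at -0.19 to -0.02 with 18 kDa FGF2. With 1 library left out or another setting, the 22.5 kDa median of chromosome 2 was between 0.43 and 0.65 and that of chromosome 21 between 0.52 and 0.59.

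Several genes named above lie in raised bins. All 3 nucleolar genes that rose do (POLR1A, POLR1B and NOP56), and so do PDK1, PFKL, POLA1, LTBP1, WNT6, DSCAM and the UGT1A cluster. LYPD6B, a gene of the Ly6 family on chromosome 2, was at 0.536 and 0.375 CPM with the empty vector and 33.9 and 22.6 CPM with 22.5 kDa FGF2 (log2 fold change 5.89, SE 0.65, adjusted p = 9.29e-06). GREB1 and FN1 also lie on chromosome 2, in raised bins, and were lower. KRT10, CCL2, RET, ASS1, TMTC1, HCFC2, S100P, LGALS3 and LAMB3 rose and lie outside raised bins. In 4 bins the median was -0.4 or lower, and the lowest, -1.26, was the protocadherin bin of chromosome 5, where 31 of 41 genes passed as lower, 22 of them the gamma genes. With these counted once, 10 of 20 passed as lower and the median was -1.37. With 18 kDa FGF2 the median of all 41 genes of this bin was -1.06. ZDHHC4 and LFNG, which were low with 18 kDa FGF2, lie on chromosome 7. Bins 1 to 3 of that chromosome had medians of -0.58 to -0.48 for 18 kDa FGF2 against the empty vector. Between the isoforms, 22.5 kDa over 18 kDa, these bins had medians of 0.48 to 0.77. How far a gene's neighbourhood accounts for its own change was not tested.

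**Figure D4:**
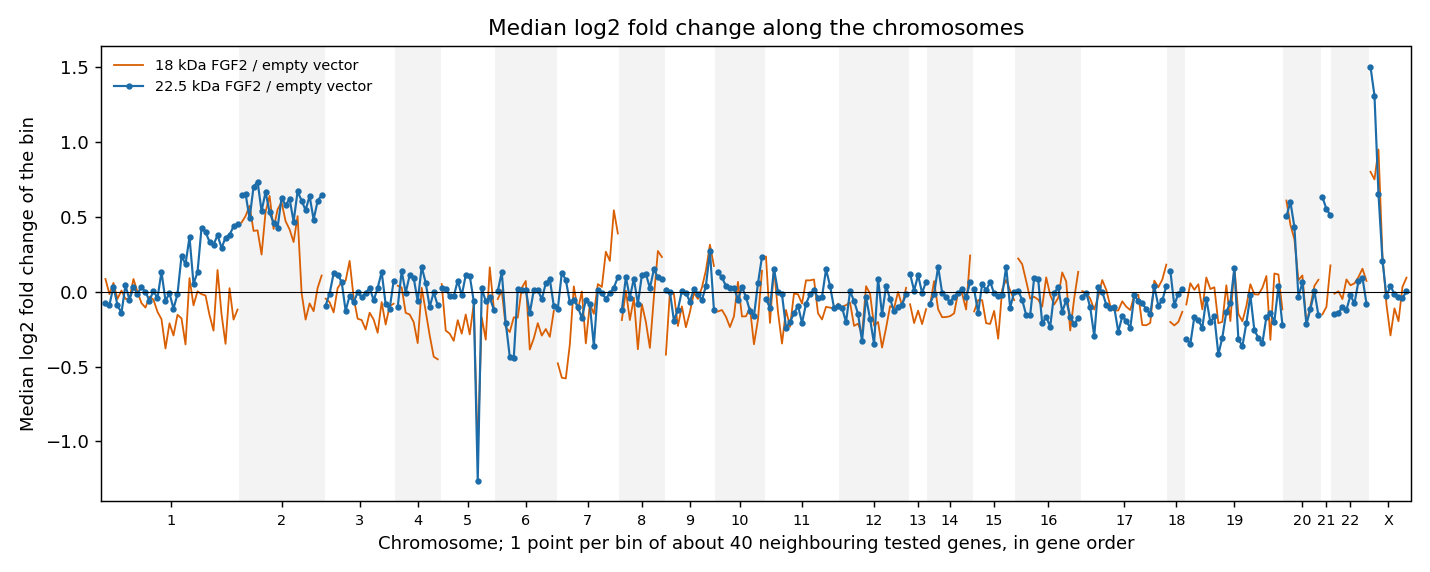
Median log2 fold change (y axis) of bins of neighbouring tested genes in order along chromosomes 1 to 22 and X (x axis), in blue for 22.5 kDa and in orange for 18 kDa FGF2, both against the same empty vector libraries. The blue line lies at 0.43 to 0.74 along the whole of chromosome 2 and at 0.51 to 0.63 along chromosome 21, where the orange chromosome median is -0.04, and drops to -1.26 at the protocadherin bin of chromosome 5. The orange line drops to -1.06 at the same bin and is also raised at the start of chromosomes 20 and X.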

How the data were processed

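RNA of 6 T47D-YA libraries, 2 per group, was sequenced as paired-end directional libraries, per the labels' protocols. The authors deposited whole-number counts of reads per Entrez gene with no normalization and no filter on low counts, on the build hg19 and with edgeR, per the submitters' processing notes. How reads were aligned, counted and assigned to strands was not given in the sources used here. Groups came from the labels and no library was left out. Symbols, chromosomes, gene order and promoters came from RefSeq tables of GRCh38.p14, matched by Entrez ID for 23308 genes, and motifs were searched on both strands.

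Counts were fitted with edgeR 4.0.16 in R 4.3.3 (TMM, filterByExpr by group, robust quasi-likelihood fit). A single model over all 6 libraries left 3 residual degrees of freedom (common biological coefficient of variation 0.199). Contrasts were tested two-sided (glmQLFTest), and p was adjusted by Benjamini-Hochberg across the 13124 tested genes. Passing means an adjusted p under 0.05, and adjusted p-values come from edgeR's test where no other tool is named. At an unadjusted p under 0.05, 3074 genes passed against the empty vector. Exact permutation of 2 against 2 libraries allows no p under 0.333 and was not used. Totals of 5317687 to 6817324 counts limit the precision of low genes. Where a group had no count for a gene, the fold is a bound that uses 3 counts per library as the floor; where it had 1 to 3, the ratio of counts is given with its exact binomial 95% interval, and both cover counting error only. Lists were described by counts and medians with no test. The script was tested on simulated data.

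The lists, the members and the rule for named genes were chosen with earlier results of these data known. The rule takes the 20 highest and the 20 lowest log2 fold changes among genes that passed whose average log2 CPM was 1 or more and whose groups did not overlap, the 10 smallest p between isoforms, fixed receptor genes, up to 5 members per list and the 10 highest levels among genes that passed. Not every gene it takes is printed. Alternatives were RLE scaling, no filter on low counts, DESeq2 1.42.0, a fit to 4 libraries, a test against a fold of 1.5 (glmTreat), a replicate block and leaving out each library.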

Additional observations from a re-analysis of the deposited data

How the results depend on the processing

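With 1 library left out in turn, 630 to 1964 genes passed for 22.5 kDa FGF2 against the empty vector (275 to 1005 higher, 350 to 1014 lower), and 37 to 733 passed between the isoforms (26 to 574 higher, 11 to 159 lower). Against a fold of 1.5 (glmTreat) these were 643 genes (253 higher, 390 lower) and 78 (56 and 22). Without the filter on low counts 445 genes (335 and 110) passed between the isoforms. Of 98 named genes that passed against the empty vector, 74 passed in all 6 fits with 1 library left out, as did 15 of 19 between the isoforms. RLE scaling, DESeq2 and the fit to 4 libraries kept the count against the empty vector within 1.5 times.

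The labels number the replicates without saying that a number is shared. Deviations of same-numbered libraries correlated at 0.387 between the empty vector and 22.5 kDa groups, -0.271 between the empty vector and 18 kDa groups and -0.413 between the FGF2 groups, so the numbers are not taken as pairs. With a replicate block 1523 genes passed against the empty vector and 337 (247 higher, 90 lower) between the isoforms. With the 18 kDa numbers crossed, chosen after seeing the data, the block gave 2910 (1451 and 1459) and 1208 (872 and 336).

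Among values that did not pass, FGFR3 (-0.01) was at 0.01 without the filter and in the fit to 4 libraries, and between -0.21 and 0.18 with 1 library left out. CTNNB1 (0.18) was between -0.16, without 22.5 kDa replicate 1, and 0.46. Between the isoforms, PGR (0.05) and ESR1 (0.68) were at -0.42 and -0.04 without 18 kDa replicate 1, and ESR1 was at 1.93 without 18 kDa replicate 2. The cause of these shifts was not tested. With 2 libraries a group and 3 residual degrees of freedom, small changes and low counts are imprecise: a difference that did not pass is not shown to be absent.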
